A study of Mus musculus with 9 samples.

Results

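The 6 genes described here encode the carbonic anhydrases and the water and urea channels of the red cell lineage: Car1, Car2, Aqp1, Aqp3, Aqp9 and Slc14a1. They were chosen by symbol, and all 6 were found among the 23285 genes of the deposited table. Carbonic anhydrases turn carbon dioxide and water into bicarbonate and protons, and CAR1 and CAR2 are the cytosolic enzymes that let red cells carry carbon dioxide from tissue to lung. AQP1 is the main water channel of the red cell membrane and the carrier of the Colton blood group in humans. AQP3 and AQP9 are aquaglyceroporins, which pass glycerol as well as water, and AQP9 is known as the glycerol channel of mouse red cells while AQP3 serves there in humans. SLC14A1 is the urea transporter of red cells, which carries the Kidd blood group in humans.

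RNA was sequenced from immature erythroid cells of the bone marrow of C57BL/6 mice, in 9 libraries. KOa and KOb came from TRIM28(flox/flox):Mx1Cre mice, which had been given 5 injections of poly(I:C) and were analysed 2 weeks later. TRIM28 is a transcriptional corepressor recruited by KRAB zinc finger proteins, and the interferon-responsive Mx1 promoter drives Cre in many blood and other cells, not in erythroid cells alone. KOa cells were CD71(hi)TER119+ and modestly deleted, with 5 to 8% of the gene left, and KOb cells were CD71(hi)TER119- and severely deleted, with 1 to 4% left. FFa, the control, held CD71(hi)TER119+ cells of TRIM28(flox/flox) mice without Cre, and its labels do not say whether poly(I:C) was given. All 3 groups thus share the floxed alleles, and each has 3 libraries. KOb and FFa differ in the sort gate as well as in the deletion, and KOa and FFa differ in Cre as well, so these cannot be told apart. Separate mice for each library are not stated, so the spread behind the tests may be technical.

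The authors deposited 1 FPKM value (fragments per kilobase of transcript, with a scaling between groups that is not stated) per gene and group, with the 3 libraries pooled, so no value per library can be shown and the depth is unknown. Each ± below is 1 standard error on the log2 scale, implied by the size of the log2 ratio over that of the authors' deposited statistic, and a gene was called when the q in the authors' deposited table was below 0.05. Trim28 had an FPKM of 6.64 in KOa and 4.76 in KOb, against 26.0 in FFa. All 10 erythroid markers found in the table were tested, and the lowest value was that of Epor in KOb, at an FPKM of 31.0. Over genes with at least 1 FPKM in both groups the median log2 ratio to FFa was -0.05 for KOa and 0.02 for KOb, and that of KOb over KOa was 0.05. The FPKM values of all genes added up to 659009 in KOb, against 1.27591e+06 in KOa and 1.23902e+06 in FFa. Dividing by these sums adds 0.91 to every log2 ratio of KOb over FFa, so that those between -0.91 and 0 turn positive, Aqp1, Slc4a1, Rhd and Mgll among them. Without globin genes the sums were 302378 in KOa and 308022 in KOb, against 438557 in FFa.

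Of the 6 genes, 5 had enough signal to be tested, and Aqp3 did not. Car1 and Aqp1 were lower in both mutant groups than in FFa, while Car2, Aqp9 and Slc14a1 were not called in any comparison. Thus 0 members were higher and 2 lower of 5 tested in KOa against FFa, where 22.1% of all tested genes were called (7.99% as higher and 14.1% as lower). In KOb against FFa 0 members were higher and 2 lower of 5, where 28.0% were called (12.8% as higher and 15.2% as lower). Both comparisons share the FFa libraries. The count stayed at 2 in both at a q below 0.01 (14.1% of all tested genes called for KOa and 18.2% for KOb), with the adjustment made within each comparison (22.1% and 29.9%) and at an unadjusted p below 0.05 (32.2% and 39.7%). It also stayed at 2 among genes of at least 1 FPKM in the higher group (26.6% and 32.5%) and of at least 5 FPKM (28.6% and 36.6%). With the deposited statistic taken as standard normal it was 1 for KOa, where 7.54% of genes were called, and 2 for KOb, where 9.58% were. The median log2 ratio of the 5 genes was -0.24 in KOa against FFa and -0.29 in KOb against FFa, beside -0.08 and -0.01 over all tested genes.

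The levels spanned a wide range, and FPKM allows them to be compared between genes since it is scaled by length. Car2 was the highest, at 890 FPKM in KOa, 788 in KOb and 965 in FFa, with 48 genes listed above it in KOa, 47 in KOb and 63 in FFa. Next came Aqp1, and Aqp9 stood far below at 4.94 FPKM in KOa, 5.65 in KOb and 5.82 in FFa. Aqp3 was close to 0, at 0.121 FPKM in KOa, 0.0892 in KOb and 0.0666 in FFa. The order of the other genes differed between the groups. In FFa the order was Car2, Aqp1, Car1, Slc14a1, Aqp9 and Aqp3, and Aqp1 exceeded Car1 by a log2 difference in level of only 0.15 ± 0.29, less than its own error. In KOa, Slc14a1 stood above Car1 by a log2 difference in level of 0.48 ± 0.30, and in KOb Car1 stood above Slc14a1 by 0.23 ± 0.30. These errors treat the genes as independent. All other neighbours with an error differed in level by at least 0.91 on the log2 scale, beyond the 95% interval of that difference.

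**Figure D1:**
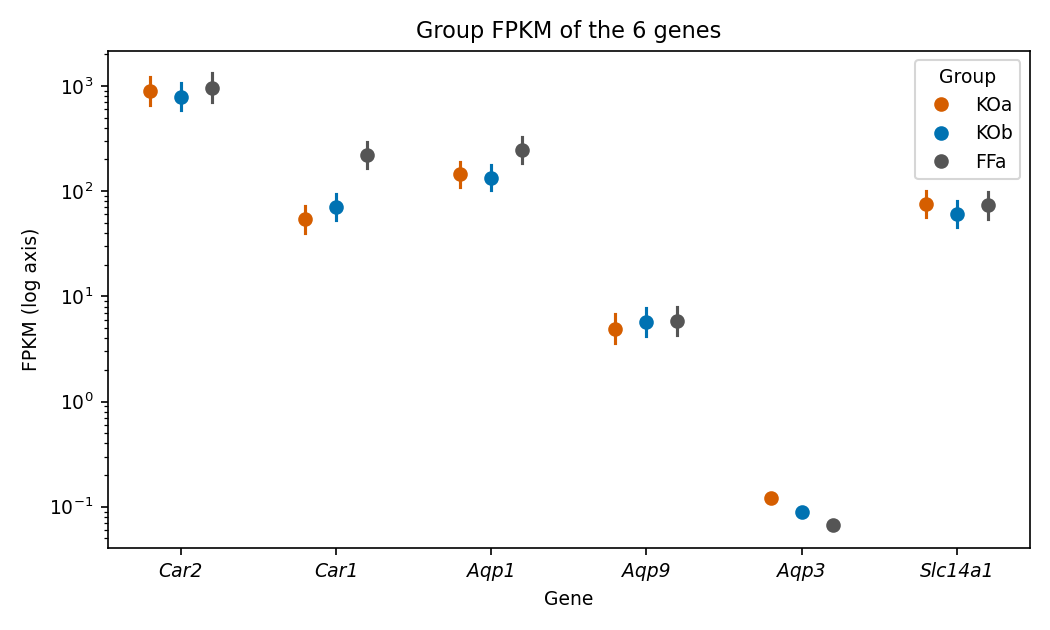
FPKM of the 6 genes (log axis) in KOa, KOb and FFa, 1 pooled value per group, with lines for the 95% interval implied by the deposited statistics; Aqp3 has no line because it was not tested. Car1 and Aqp1 sit lower in KOa and KOb than in FFa, with a slight overlap of the Aqp1 intervals of KOa and FFa. Car2, Aqp9 and Slc14a1 have overlapping intervals in all 3 groups.

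Car1, which encodes carbonic anhydrase I, had an FPKM of 53.9 in KOa and 71.3 in KOb, against 220.5 in FFa. Its level was therefore 24.5% of that of FFa in KOa and 32.3% in KOb. The intervals implied for its level, 40.4 to 72.1 FPKM in KOa and 53.6 to 94.8 in KOb, did not overlap that of FFa, 166 to 292. Its log2 ratio was -2.03 ± 0.30 in KOa against FFa and -1.63 ± 0.30 in KOb against FFa. In the authors' deposited table both have the smallest q it holds, 0.000619, a floor that 2570 of the 31813 tested results share. With FPKM scaled to its sum over all genes, the log2 ratio of Car1 came to -2.07 ± 0.30 in KOa against FFa and -0.72 ± 0.30 in KOb against FFa. Car1 was still called with the statistic taken as standard normal, with a q of 1.3e-09 in KOa against FFa and 2.8e-06 in KOb against FFa. With 240 genes listed above it in FFa, Car1 was among the more abundant transcripts there, while 675 genes were above it in KOa and 495 in KOb. Fewer cells of a type and less RNA per cell cannot be told apart in such pooled material.

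Car2 encodes carbonic anhydrase II, the faster enzyme, whose loss in humans causes osteopetrosis with renal tubular acidosis. It had an FPKM of 890 in KOa and 788 in KOb, against 965 in FFa. The log2 ratio of Car2 was -0.12 ± 0.32 in KOa against FFa, with a 95% interval of -0.75 to 0.51. It was -0.29 ± 0.32 in KOb against FFa, with an interval of -0.91 to 0.33. The q values in the authors' deposited table were 0.739 and 0.325, so no difference was called, and the intervals leave room for a moderate fall. The log2 ratio of Car1 lay below that of Car2 by 1.91 ± 0.44 in KOa against FFa and by 1.34 ± 0.43 in KOb against FFa, if the errors of both genes are taken as independent. In terms of levels, Car2 exceeded Car1 by 16.5-fold in KOa and 11.1-fold in KOb, against 4.38-fold in FFa.

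**Figure D2:**
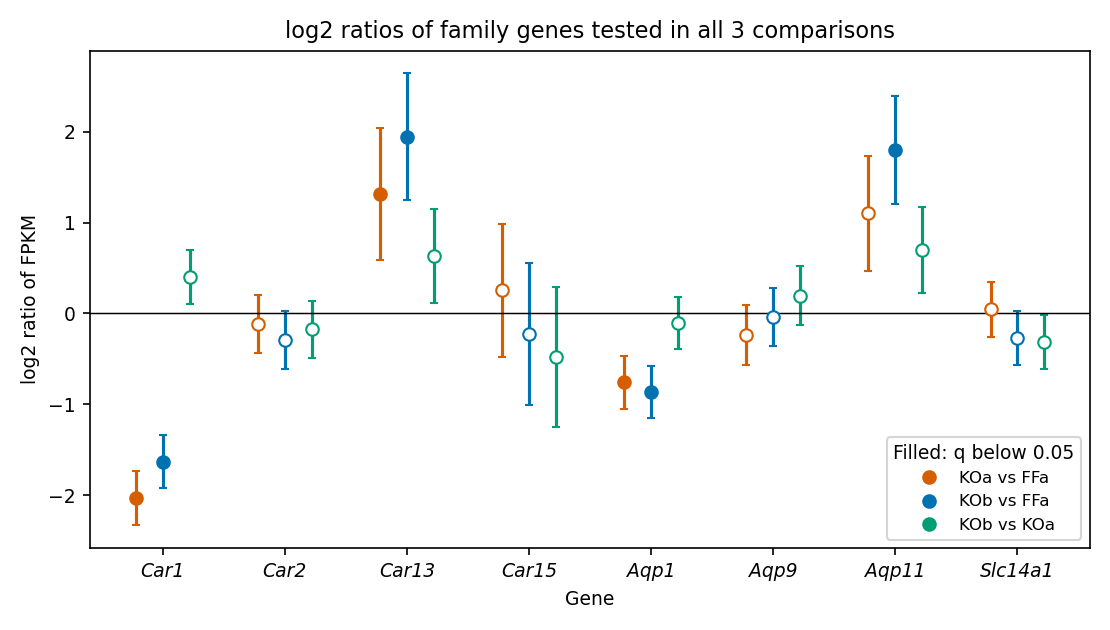
Log2 ratio of FPKM for the 8 carbonic anhydrase, aquaporin and urea transporter genes tested in all 3 comparisons, with bars of 1 implied standard error and filled points for a deposited q below 0.05. Car1 and Aqp1 are below 0 in both comparisons with FFa, Car13 is above 0 in both, and no point for KOb against KOa is filled.

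Car1 and Car2 lie in 1 cluster on chromosome 3. In mm10, the span of 259 kb from position 14641727 to 14900770 holds 4 genes of the table, all of them carbonic anhydrases: Car13, Car1, Car3 and Car2 in that order. Car1 (14766214 to 14808365) is on the minus strand and Car2 (14886426 to 14900770) on the plus strand, so they run away from each other across a gap of 78.1 kb. Car3, the muscle and fat isoform that lies in this gap, was listed at 0.0650 FPKM in KOa, 0.0562 in KOb and 0.0428 in FFa and was not tested. Car13, which encodes another cytosolic isoform, had an FPKM of 0.916 in KOa and 1.42 in KOb, against 0.368 in FFa. It rose by a log2 ratio of 1.31 ± 0.73 in KOa against FFa and 1.95 ± 0.70 in KOb against FFa, with q values of 0.0491 and 0.00289 in the authors' deposited table. Car13 is thus called in the direction opposite to its neighbour Car1, at a far lower level. With the statistic taken as standard normal the q values of Car13 were 0.378 and 0.0686, and neither was called. In the GENCODE M21 annotation of the same genome no exon of another gene overlaps an exon of Car1, Car2 or Car13.

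**Figure D3:**
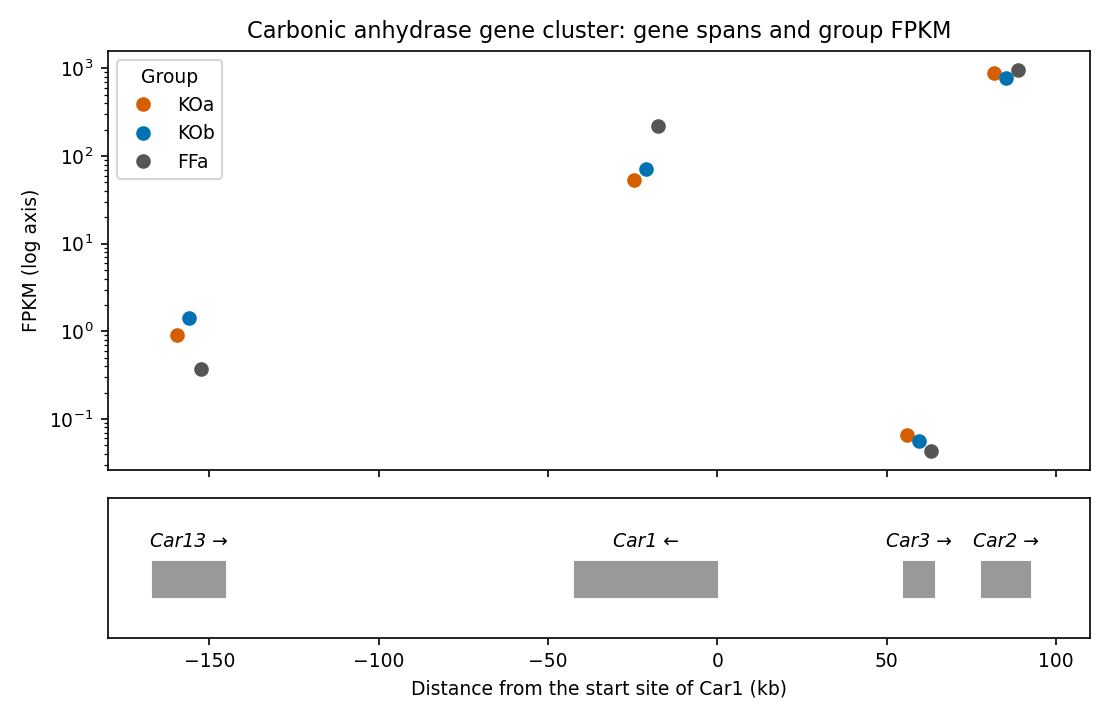
Carbonic anhydrase cluster, with FPKM (log axis) of each gene in KOa, KOb and FFa above a map of the gene spans in kb from the start site of Car1, arrows giving the direction of transcription. Car1 is lower in both mutant groups than in FFa, Car2 is between 788 and 965 FPKM, Car13 between 0.368 and 1.42, and Car3 at most 0.0650.

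Among all 16 carbonic anhydrase genes, Car1 and Car2 made up nearly the whole FPKM sum. That sum was 946 in KOa and 862 in KOb, against 1188 in FFa. Car1 contributed 5.70% of it in KOa and 8.27% in KOb, against 18.6% in FFa. Car2 contributed 94.0% in KOa and 91.4% in KOb, against 81.3% in FFa. Of the 16 genes 4 were tested in KOa against FFa, with 1 higher (Car13) and 1 lower (Car1), and the same counts were found in KOb against FFa. Beside this, 22.1% of all tested genes were called in KOa against FFa and 28.0% in KOb against FFa. Car15, which encodes a membrane-anchored enzyme, was the fourth tested gene and had 1.07 FPKM in KOa, 0.766 in KOb and 0.896 in FFa, with no call. The other 12 genes reached at most 0.216 FPKM in any group.

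**Figure D4:**
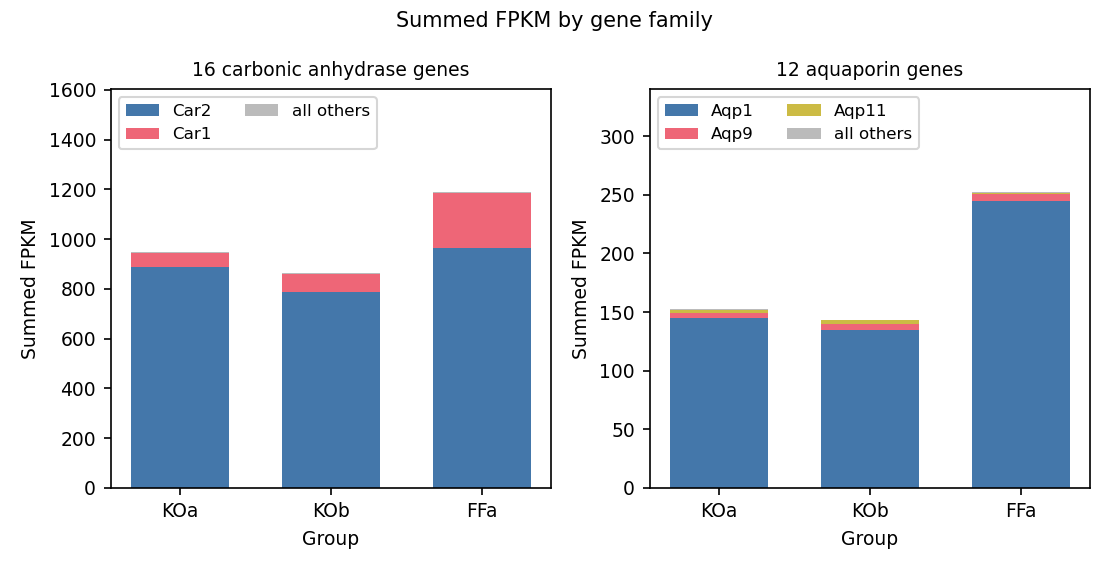
Summed FPKM of the 16 carbonic anhydrase genes (left) and of the 12 aquaporin genes (right) in KOa, KOb and FFa, split by gene. Car2 makes up most of the left bars and Aqp1 most of the right ones, and the Car1 and Aqp1 segments are smaller in KOa and KOb than in FFa.

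Aqp1 (chromosome 6, 55336299 to 55348555 of mm10, plus strand) had an FPKM of 145 in KOa and 134 in KOb, against 244 in FFa. Both mutant groups were low, at 59.2% of FFa in KOa and 54.9% in KOb, and differed little from each other. The interval implied for its level was 110 to 191 FPKM in KOa and 102 to 176 in KOb, against 185 to 323 in FFa, so that KOa overlaps FFa slightly and KOb does not. The log2 ratio of Aqp1 was -0.76 ± 0.29 in KOa against FFa and -0.87 ± 0.29 in KOb against FFa, and both have q = 0.000619 in the authors' deposited table. With the statistic taken as standard normal, the q was 0.101 in KOa against FFa, which ends that call, and 0.0414 in KOb against FFa. With FPKM scaled to its sum without globin genes, the log2 ratio of Aqp1 came to -0.22 ± 0.29 in KOa against FFa and -0.36 ± 0.29 in KOb against FFa, and both 95% intervals include 0. With FPKM scaled to its sum over all genes, it came to -0.80 ± 0.29 in KOa against FFa and 0.046 ± 0.29 in KOb against FFa. The value for KOb lies within its error of 0, so no fall is left under this scaling, which was chosen after seeing the data. The log2 ratio of these sums was -0.91 for KOb over FFa. As deposited, the median log2 ratio of genes with at least 1 FPKM in both groups was 0.02 there. Genes other than globin made up 46.7% of the sum in KOb, against 35.4% in FFa. The log2 ratio of Car1 lay below that of Aqp1 by 1.27 ± 0.42 in KOa against FFa and by 0.76 ± 0.41 in KOb against FFa, where the 95% interval includes 0. The log2 ratio of Aqp1 minus that of Aqp9 was -0.52 ± 0.44 in KOa against FFa and -0.82 ± 0.43 in KOb against FFa, and minus that of Slc14a1 it was -0.80 ± 0.42 and -0.60 ± 0.41. The 95% intervals of these 4 differences include 0, so the log2 ratio of Aqp1 was not separated from those of these uncalled members.

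The promoter windows of Aqp1 and Aqp9 are shown because these are the tested members with a matched window, and they differ in base composition. They are from RefSeq (GRCm38.p6, the genome of mm10), where 3 of the 6 genes matched, Aqp1, Aqp3 and Aqp9, and Car1, Car2 and Slc14a1 did not. Each runs from 250 bases before to 50 bases after the start, read 5′ to 3′ on the strand of the gene. Aqp1 is at chr6:55336049-55336348 on the plus strand and Aqp9 at chr9:71163240-71163539 on the minus strand. Capitals mark CACCC, the core of the box bound by the erythroid factor KLF1, on either strand (GGGTG is the same motif on the other strand).
Aqp1: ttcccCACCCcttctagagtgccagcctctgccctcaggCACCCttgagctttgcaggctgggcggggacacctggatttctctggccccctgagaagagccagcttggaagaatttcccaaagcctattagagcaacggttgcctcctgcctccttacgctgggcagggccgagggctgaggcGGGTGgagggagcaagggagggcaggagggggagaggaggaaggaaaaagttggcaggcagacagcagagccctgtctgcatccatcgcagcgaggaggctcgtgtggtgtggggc
Aqp9: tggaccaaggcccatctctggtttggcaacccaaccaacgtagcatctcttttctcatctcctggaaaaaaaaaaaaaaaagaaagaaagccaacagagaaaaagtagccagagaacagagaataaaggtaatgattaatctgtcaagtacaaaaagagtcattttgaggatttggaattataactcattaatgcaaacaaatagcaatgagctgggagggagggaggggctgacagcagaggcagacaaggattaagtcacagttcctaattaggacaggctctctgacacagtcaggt
The Aqp1 window held CACCC 3 times, at positions -245, -211 and -66 from the start, and its GC content was 62.7%. The window of Aqp3, which was near 0 in expression, held CACCC 4 times with a GC content of 64%. The Aqp9 window held no match and had a GC content of 41.3%. CACCC occurred on either strand in 57.5% of all 32851 promoter windows of this length, so a match is common. Of the GATA motif only the form AGATAA was searched, and other forms were not. AGATAA occurred in 11.2% of all windows and in none of the 3 members' windows. Aqp9 has a second RefSeq start, whose window held no match to CACCC or to AGATAA.

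Aqp9 (chromosome 9, 71110661 to 71163289, minus strand) was low and nearly level across the groups, at 4.94 FPKM in KOa and 5.65 in KOb, against 5.82 in FFa. Its log2 ratio was -0.24 ± 0.33 in KOa against FFa (95% interval -0.87 to 0.40) and -0.04 ± 0.32 in KOb against FFa (-0.67 to 0.59), with q values of 0.428 and 0.912 in the authors' deposited table. AQP9 is also known from neutrophils, so granulocyte markers are given beside it. The 15 granulocyte markers added up to 16834 FPKM in KOa and 13664 in KOb, against 49315 in FFa, and 7 of them fell and 2 rose in KOa against FFa. S100a9, a subunit gene of calprotectin, fell to 278 FPKM in KOa and 231 in KOb, against 10284 in FFa. Ngp, a gene of neutrophil granules, fell to 103 in KOa and 89.5 in KOb, against 921 in FFa. Ctsg, the cathepsin G gene, rose to 15.9 in KOa and 20.2 in KOb, against 3.35 in FFa. The 14 macrophage and monocyte markers in the table added up to 162 FPKM in KOa and 134 in KOb, against 439 in FFa, and of 13 tested 7 fell in KOa and 13 in KOb, and 0 rose. Over all tested genes 22.1% were called in KOa against FFa and 28.0% in KOb against FFa. In KOb against FFa 9 of the 15 granulocyte markers fell and 2 rose, and none of either list was at 0 in any group. The part of these cells in the Aqp9 level was not tested.

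Aqp3 (chromosome 4, 41092724 to 41098183, minus strand) did not reach the signal that the authors' test needed in any comparison, so its values are given without a ratio. Of all 12 aquaporin genes, only Aqp1, Aqp9 and Aqp11 reached 1 FPKM in any group. Aqp1 alone made up 94.7% of the summed FPKM of the family in KOa and 93.5% in KOb, against 97.0% in FFa. Aqp11, which encodes an intracellular aquaporin, had an FPKM of 1.81 in KOa and 2.93 in KOb, against 0.843 in FFa. Its log2 ratio was 1.80 ± 0.59 in KOb against FFa, and 1.10 ± 0.63 in KOa against FFa. The q values in the authors' deposited table were 0.00248 for KOb and 0.0647 for KOa, so Aqp11 rose in KOb, and the call held with the statistic taken as standard normal. Aqp12 was called in KOa against FFa, but it was listed at 0 in FFa and at 0.327 FPKM in KOa. Endothelial cells also carry Aqp1, and the 10 endothelial and stromal markers added up to 2.93 FPKM in KOa, 2.34 in KOb and 3.11 in FFa, with Emcn at 0 in FFa and Cdh5 at most 0.181 in any group. Of these 1 fell of 4 tested in KOa against FFa and 2 fell of 3 in KOb against FFa. Over all tested genes 22.1% and 28.0% were called there. The median log2 ratio was 0.16 over the 4 markers tested in KOa against FFa and -0.72 over the 3 tested in KOb against FFa, so the 2 medians are not over the same genes. Pecam1, an adhesion gene that platelets also carry, fell to 0.848 FPKM in KOa and 1.03 in KOb, against 1.69 in FFa, and Vwf fell to 0.367 in KOb, against 0.604 in FFa. None of these calls was left with the statistic taken as standard normal. Their part in the Aqp1 values was not tested.

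Slc14a1 (chromosome 18, 78100091 to 78142119, minus strand) had an FPKM of 75.4 in KOa and 60.6 in KOb, against 73.1 in FFa. KOa was slightly above and KOb below FFa, and the implied intervals overlapped. Its log2 ratio was 0.05 ± 0.30 in KOa against FFa (95% interval -0.54 to 0.63) and -0.27 ± 0.30 in KOb against FFa (-0.85 to 0.31). The q values in the authors' deposited table were 0.892 and 0.270. The log2 ratio of Car1 lay below that of Slc14a1 by 2.08 ± 0.42 in KOa against FFa and by 1.36 ± 0.42 in KOb against FFa. Slc14a2, the urea transporter gene of the kidney that lies beside it, was listed at 0.157 FPKM in KOa, 0.0467 in KOb and 0.0531 in FFa and was not tested.

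KOb against KOa compares the 2 mutant populations, which differ in the degree of deletion and in TER119. None of the 5 tested members was called there by the q in the authors' deposited table, where 16.2% of all tested genes were called (6.19% as lower), and none was called with the statistic taken as standard normal (2.71% of all tested genes). The count was also 0 at a q below 0.01 (8.44% called), with adjustment within the comparison (14.2%) and with FPKM minimums of 1 (20.8%) and 5 (26.2%). By the unadjusted p of the authors' deposited table, below 0.05, 1 member (Car1) was higher, where 27.9% of all tested genes passed. Car1 had 71.3 FPKM in KOb and 53.9 in KOa, a log2 ratio of 0.40 ± 0.30 (95% interval -0.18 to 0.99). For Car1 the authors' deposited table gives p = 0.0202 and q = 0.0776. The interval of Car1 includes 0 because it takes the statistic as standard normal, which the deposited p does not. Slc14a1 had 60.6 FPKM in KOb and 75.4 in KOa, a log2 ratio of -0.31 ± 0.30 (-0.90 to 0.27). The log2 ratios of Car2, Aqp1 and Aqp9 were -0.17 ± 0.32, -0.11 ± 0.29 and 0.20 ± 0.32. This comparison is also the test of whether the falls of Car1 and Aqp1 differed between KOa and KOb, and it found no called difference, which does not show that they were equal.

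Genes with the most similar pattern were sought by the distance in the plane of both log2 ratios to FFa, that of KOa and that of KOb, over 3 group values, among 4604 genes tested in both and with at least 5 FPKM in some group. Around Car1 there were 10 genes within a distance of 0.3 on the log2 scale, against 151 around Aqp1 and 980 around Car2. Such counts depend on how far a gene's ratios lie from 0, so they restate the size of the fall and are no separate result. The nearest to Car1 were the histone gene Hist1h3h (distance 0.03, with near-identical copies that share reads) and Nme7 (0.04). The nearest to Aqp1 were Irak1 and Golph3l, and to Car2 they were Ep400 and Mcm7, a subunit gene of the replicative helicase, each at a distance of at most 0.01. Aqp9 was nearest to Slc40a1, the gene of the iron exporter ferroportin, and to Prdx4, at 0.01 and 0.02. Slc14a1 was nearest to Ncoa7 and Sertad2, also at 0.01 each. All these distances are far below the implied errors of the members' log2 ratios, so which genes come nearest is not resolved.

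The bicarbonate made by carbonic anhydrases leaves the red cell through band 3, the anion exchanger encoded by Slc4a1. Of 20 genes of the Slc4a and Slc26a families 5 were tested, with 0 called in KOa against FFa, where 22.1% of all tested genes were called, and 1 lower in KOb against FFa, where 28.0% were. That gene was Slc4a1, with an FPKM of 714 in KOa and 470 in KOb, against 867 in FFa. Its log2 ratio was -0.28 ± 0.41 in KOa against FFa and -0.88 ± 0.39 in KOb against FFa, with q values of 0.436 and 0.00161 in the authors' deposited table. In KOb against KOa Slc4a1 fell by 0.60 ± 0.38 on the log2 scale, with a 95% interval of -1.34 to 0.14, and that call was lost with adjustment within the comparison. Slc4a7, a sodium bicarbonate cotransporter gene, had 0.401 FPKM in KOa and 0.940 in KOb, against 0.608 in FFa, and was not called against FFa by the deposited q. With adjustment within the comparison it was called higher in KOb against FFa (q of 0.0430). By the unadjusted p of the authors' deposited table it was the 1 gene of these families below 0.05 in KOa against FFa. That p of Slc4a7 was also below 0.05 in KOb against FFa, at 0.01235. In KOb against KOa Slc4a7 rose by 1.23 ± 0.45 on the log2 scale. No call in these families was left in any comparison with the statistic taken as standard normal. Of the Rh family, whose Rhag product passes ammonium and gases, 2 genes were tested. Rhag had 194 FPKM in KOa and 165 in KOb, against 152 in FFa, with no call, and Rhd had 339 in KOa and 244 in KOb, against 401 in FFa, and fell by 0.72 ± 0.27 on the log2 scale in KOb against FFa, a call lost with the statistic taken as standard normal (q of 0.0861).

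Ion transport sets the cell volume that water follows through AQP1. Among 19 such genes, 3 rose and 3 fell of 16 tested in KOa against FFa, and 5 rose and 3 fell of 17 tested in KOb against FFa, beside 22.1% and 28.0% of all tested genes. With the statistic taken as standard normal 4 of these calls were left in KOa against FFa and 3 in KOb against FFa. Kcnn4, the calcium-activated potassium channel known as the Gardos channel, had 49.3 FPKM in KOa and 38.3 in KOb, against 98.3 in FFa. Its log2 ratio was -0.99 ± 0.29 in KOa against FFa and -1.36 ± 0.29 in KOb against FFa, so it fell in both as Aqp1 did. The largest ratios to FFa in this list were those of beta subunits of the sodium pump. Atp1b1 fell to 0.353 FPKM in KOa and 0.468 in KOb, against 5.93 in FFa, while Atp1b2 rose to 22.6 in KOa and 31.9 in KOb, against 4.58 in FFa. Of 11 genes of glycerol and urea metabolism, 8 were tested, with 1 higher and 1 lower in KOa against FFa and 0 higher and 2 lower in KOb against FFa, beside the same shares of all tested genes. The lipase gene Pnpla2 was the 1 called higher in KOa against FFa, by 0.64 ± 0.30 on the log2 scale. Gpd1l fell by 2.29 ± 0.52 on the log2 scale in KOa against FFa and by 1.85 ± 0.47 in KOb against FFa, and the lipase gene Mgll fell by 0.77 ± 0.31 in KOb against FFa. With the statistic taken as standard normal the calls of Gpd1l were left, and those of Pnpla2 in KOa against FFa (q of 0.238) and Mgll (q of 0.130) were lost.

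Markers of other cells changed in both directions. Over all tested genes 22.1% were called in KOa against FFa and 28.0% in KOb against FFa, to be set beside the counts of each list. All 10 B cell markers fell in both mutant groups, their summed FPKM being 22.4 in KOa and 20.9 in KOb, against 240 in FFa. Megakaryocyte markers rose in 4 of 6 tested in KOa against FFa, with sums of 69.1 in KOa and 57.1 in KOb, against 34.8 in FFa, and in KOb against FFa 4 rose and 1 fell of 6. Of the T and NK cell markers 1 rose and 1 fell of 8 tested in KOa against FFa, with sums of 17.1 in KOa and 15.8 in KOb, against 19.6 in FFa, and in KOb against FFa 1 rose and 3 fell of 7. Osteoclasts also carry Car2. Their markers Ctsk, Calcr, Ocstamp, Dcstamp, Atp6v0d2 and Oscar were at most 0.213 FPKM in every group, with Dcstamp at 0 in KOa and FFa. Nfatc1 reached 1.41 FPKM in FFa, and Acp5 was at 47.6 in KOa and 34.2 in KOb, against 94.1 in FFa. Nfatc1 and Acp5 were the 2 tested, and both fell in both mutant groups, but neither was called with the statistic taken as standard normal. Among the erythroid markers, 0 rose and 1 fell of 10 in KOa against FFa, and 0 rose and 4 fell in KOb against FFa. Alas2, the first enzyme gene of heme synthesis, had 1167 FPKM in KOa and 861 in KOb, against 2082 in FFa, and was the marker that fell in KOa, a call lost with the statistic taken as standard normal (q of 0.251). The part of other cells in the values of Car1, Car2 and Aqp1 was not tested.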

How the data were processed

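Immature erythroid cells of mouse bone marrow were profiled by RNA sequencing in 9 libraries, 3 per group. Total RNA, treated with DNase, went into NuGEN Encore Complete libraries, per the labels' protocols. The tools were Cuffdiff 2.1.1, TopHat2 2.0.8b and Bowtie2 2.1.0, and the build mm10, per the submitters' processing notes. Annotation, filters, scaling and strand use are not stated. FPKM values, 1 per gene and group, are those of the authors. The log2 ratio in the deposited table equals the log2 of the group FPKM values without a pseudocount. The score in the deposited table is the statistic of that ratio, and its p-value and q-value are the authors' as well. Recomputing the adjustment over all 31813 tested results gave the deposited q within 5.27e-07, and the smallest deposited p is 5e-05.

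Errors, level intervals (1.96 standard errors), folds and shares were computed here with Python 3.11.15 and pandas 2.3.3. A group's own error was solved from the 3 pairwise errors of a gene. The adjustment code was tested on simulated data. No value per library was used, so depth, SD and fits without a replicate could not be given. The members and gene lists were chosen with earlier results of these data known. Named from each list are up to 3 called genes of largest change per comparison, or the 2 of highest mean FPKM; some markers were named after their values were seen. The list symbols Piezo1, Adgre1, Gk, Hbb-b1, Hba-a1 and Trbc2 matched no row and were not used. Alternatives covered the threshold, the p-value, the adjustment, FPKM minimums of 1 and 5, a pseudocount of 1 and the scaling.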

Additional observations from a re-analysis of the deposited data

How the results depend on the processing

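The counts of members called and the calls of Car1, Car2, Aqp1, Aqp9 and Slc14a1 in the 3 comparisons were the same at a q below 0.01, with adjustment within each comparison, and with FPKM minimums of 1 and 5. With the statistic taken as standard normal, 1 member in place of 2 was called in KOa against FFa, since Aqp1 (log2 ratio -0.76) then had a q of 0.101; the other calls stayed. A pseudocount of 1 FPKM, and subtracting the median log2 ratio, moved each of these log2 ratios by less than its error. Scaling to the FPKM sum without globin genes adds 0.54 (KOa over FFa) and 0.51 (KOb over FFa) to every log2 ratio. For KOa over FFa they were then -1.49 for Car1, 0.42 for Car2, -0.22 for Aqp1, 0.30 for Aqp9 and 0.58 for Slc14a1, and for KOb over FFa -1.12, 0.22, -0.36, 0.47 and 0.24 in the same order. With small RNA genes left out of the sum too, an alternative chosen after seeing the data, values that moved by more than their error were -1.71 for Car1, -0.44 for Aqp1 and 0.36 for Slc14a1 for KOa over FFa. For KOb over FFa they were -1.15 for Car1, 0.18 for Car2, -0.39 for Aqp1, 0.43 for Aqp9 and 0.21 for Slc14a1. With FPKM scaled to its sum over all genes, also chosen after seeing the data, Aqp1 turned to 0.046 for KOb over FFa, where Car1 came to -0.72, Car2 to 0.62, Aqp9 to 0.87 and Slc14a1 to 0.64. For KOb over KOa the values were then 1.36 for Car1, 0.78 for Car2, 0.85 for Aqp1, 1.15 for Aqp9 and 0.64 for Slc14a1, while for KOa over FFa none moved by more than its error. Car1 was below 0 against FFa under each scaling, and Aqp1 was not. No paired analysis was possible because the table holds 1 pooled value per group, and leaving out replicates was not run for the same reason. Aqp3 was not tested, so its values have no error to set an alternative against.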
